A study of Ovis aries with 14 samples.

Results

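Genes that stood highest in term lamb lungs were described across 14 RNA libraries from the right lower lung lobe of sheep (Ovis aries). The genes were chosen from their own measured values, on CPM, the count over the library total times 1000000. A gene was taken when its mean over all libraries was from 2 to under 1000 CPM, both term libraries were above all 12 others, and the term mean was at least 1.5 times the mean of those 12. In addition, at least 1 library from a supported lamb had to lie at or below the highest fetal library. This rule found 121 genes of 27054 listed, or of 13364 in the CPM range. Of the genes in that range, 663 had both term libraries above all others and 144 of these also met the ratio. The last clause then left out 23, in which every supported library was above every fetal one.

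The study set lungs of preterm lambs on respiratory support against unsupported lungs of several ages. Term lungs (n = 2) were labelled as untreated at gd150 (gd, gestational day), and the labels do not say whether these lambs had been born. Invasive mechanical ventilation (IMV, n = 3) supports an intubated lamb, and noninvasive respiratory support (NRS, n = 3) does not rely on intubation. Both lasted 3 days and both groups were labelled gd134. Fetal end lungs (n = 3, labelled gd134, gd135 and gd136) and fetal start lungs (n = 3, labelled gd127, gd128 and gd131) had no treatment. The identifiers show 14 separate animals, and the sources used here give neither breed nor sex.

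Near term the lung changes from a fluid-filled organ to one that can exchange gas. In late gestation the air spaces widen, their walls thin, type 2 epithelial cells store and secrete surfactant, and the epithelium turns from secreting to absorbing fluid. Preterm birth cuts this course short, and ventilation of an immature lung is known to disturb the formation of alveoli. The files list Ensembl gene identifiers without names, and the reference table at hand paired 0 of the 27054 identifiers with a symbol. Genes are therefore given by identifier, no function is assigned to any of them, and the tissue could not be checked against marker genes. Where a bulk sample has less RNA of a gene, fewer cells of a type and less RNA per cell cannot be told apart.

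Library totals ran from 23267448 counts (NRS replicate 2) to 31586235 counts (IMV replicate 2). The 121 genes held 1.10% and 1.03% of all counts in the term libraries. Their share was 0.601% to 0.636% in IMV libraries, 0.688% to 0.786% in NRS libraries, 0.533% to 0.583% in fetal end libraries and 0.442% to 0.622% in fetal start libraries. Of the 121 genes, 119 had at least 10 counts in all 14 libraries, and the lowest count of any of them in a term library was 80.

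The term difference was modest for most of the genes. The ratio of the term mean to the mean of the other 12 libraries had a median of 1.67 (quartiles 1.57 and 2.02, range 1.501 to 9.90). It was at least 2 in 33 genes, at least 3 in 13 and at least 4 in 8. Term means ran from 3.29 to 894 CPM, with a median of 39.7 CPM. Among the 30 genes with a term mean of at least 100 CPM, 4 had a ratio of at least 2, and among the 20 genes under 10 CPM, 6 did. These values were used to choose the genes and are given as a description, with no test.

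The gap between the lower term library and the highest other library was narrow. Its ratio had a median of 1.11 (quartiles 1.04 and 1.19), and the highest was 1.75. It was at least 1.5 in 2 genes, ENSOARG00000004875 at 1.75 and ENSOARG00000004608 at 1.602, of which the first was singled out after its values were seen. ENSOARG00000004875 had 22.7 and 18.5 CPM in the term libraries. Its other libraries had 6.03, 8.58 and 9.15 CPM with IMV, 2.48, 7.99 and 10.6 CPM with NRS, 4.46, 5.70 and 4.07 CPM at fetal end, and 1.59, 1.81 and 6.85 CPM at fetal start. Both term lungs stood clear of every other lung for this gene. All IMV libraries were above all fetal end libraries, and the other pairs of these 4 groups overlapped. The genes nearest the limits of the rule show how little separates a gene inside from one outside. The lowest ratio inside was 1.501 and the highest outside was 1.4997. The lowest mean over 14 libraries inside was 2.01 CPM, against 1.99 CPM just outside. The smallest gap inside was 75.861 CPM in the lower term library against 75.857 CPM in the highest other one.

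**Figure D1:**
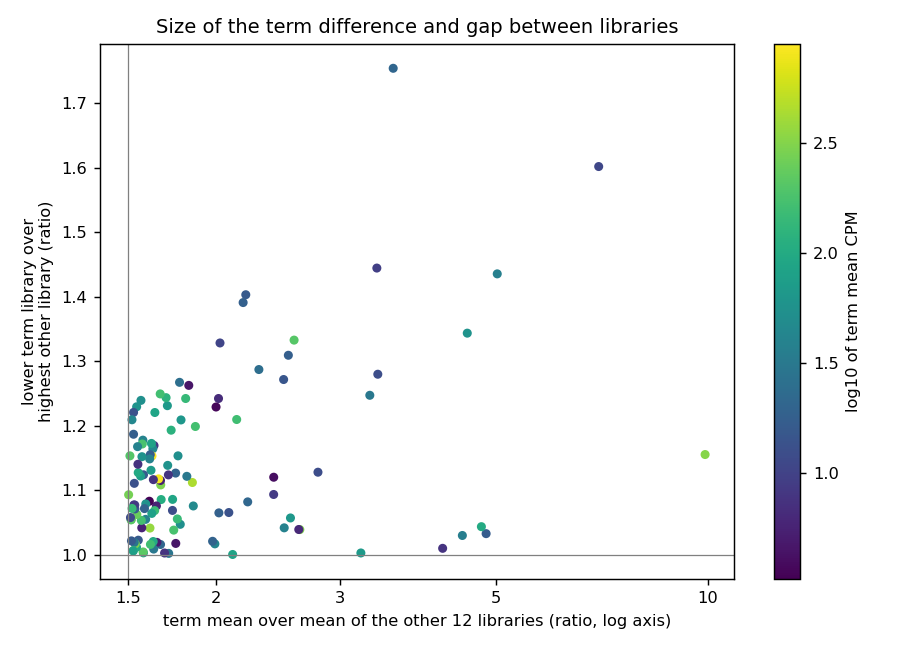
Each point is 1 of the 121 genes. The x axis (log) gives the term mean over the mean of the other 12 libraries, the y axis the lower term library over the highest other library, and the colour the log10 of the term mean CPM. Grey lines mark the limits of the rule at 1.5 and 1. Most points crowd near both limits, and only 2 lie above 1.5 on the y axis.

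The 2 term libraries differed by 1.5-fold or less in most of the 121 genes. The rule asks both to exceed all others, so it favours genes in which they agree. Over genes with enough counts, chosen or not, the term pair had a chi-square per degree of freedom against sampling noise of 74.6. Pairs within the other groups ran from 28.1 to 89.1. Of the 121 genes, 72 were higher in term replicate 2 and 49 in term replicate 3. Among the genes in the CPM range these shares were 49.2% and 50.8%. The larger term value exceeded the smaller by a median of 1.17-fold, by over 1.5-fold in 16 genes and by over 2-fold in 7, with a largest fold of 4.41. The set of genes itself rests on both term libraries and on NRS replicate 2. The rule applied without term replicate 2 found 373 genes, 90 of them among the 121, and without term replicate 3 it found 542, with 102 shared. Without NRS replicate 2 it found 214 genes, 119 of them shared. Without any other single library it found from 109 to 166.

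The genes with the highest ratios also varied widely among lungs that were not at term. ENSOARG00000008208 had the highest ratio, 9.90. It had 454 and 187 CPM in term libraries, 41.7, 12.4 and 12.7 CPM with IMV, and 20.1, 162 and 69.4 CPM with NRS. Fetal end libraries had 12.5, 10.02 and 3.55 CPM, and fetal start libraries 1.81, 1.42 and 41.1 CPM. NRS replicate 2 came close to the lower term lung, and fetal start replicate 3, the oldest of its group (gd131), stood far above its group mates. The ratio was 5.78 without term replicate 2 and 15.6 without NRS replicate 2. ENSOARG00000008208 also had the highest ratio of supported to fetal means, 4.52, with 22.3 ± 16.9 CPM for IMV and 83.8 ± 72.0 CPM for NRS (SD, n = 3 each). Its IMV and NRS libraries overlapped. The difference was -1.86 ± 1.10 on the log2 scale (SE) and did not pass edgeR's quasi-likelihood test, with an adjusted p of 0.554.

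ENSOARG00000004608 had the next highest ratio, 6.99, at a much lower level. It had 13.04 and 8.69 CPM at term, 5.43, 0.855 and 1.18 CPM with IMV, and 1.04, 3.70 and 1.04 CPM with NRS. Fetal end libraries had 1.41, 0.894 and 0.604 CPM, and fetal start libraries 0.0723, 0.248 and 2.18 CPM, the lowest of which stands for 2 counts. Again 1 library of the IMV group, 1 of the NRS group and fetal start replicate 3 stood above their group mates. Of the 13 genes with a ratio of at least 3, fetal start replicate 3 was the highest of its group in 12. Term replicate 2 was above term replicate 3 in 9 of the 13. Among the genes in the CPM range these held for 39.1% and 49.2%. Across the other 12 libraries these 13 genes had a median of 11.1-fold between the highest and the lowest library, where the median of all 121 was 2.52-fold.

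The most abundant of the genes showed small ratios. ENSOARG00000012672 had 891 and 897 CPM at term, 516, 563 and 675 CPM with IMV, 685, 772 and 605 CPM with NRS, 559, 384 and 532 CPM at fetal end, and 474, 335 and 518 CPM at fetal start. ENSOARG00000020213 had 803 and 859 CPM at term, 432, 463 and 556 CPM with IMV, 526, 719 and 639 CPM with NRS, 481, 437 and 456 CPM at fetal end, and 332, 362 and 622 CPM at fetal start. In both genes NRS replicate 2 was the highest of the 12 other libraries and a fetal start library the lowest. Their ratios of term to the other 12 were 1.62 and 1.66.

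**Figure D2:**
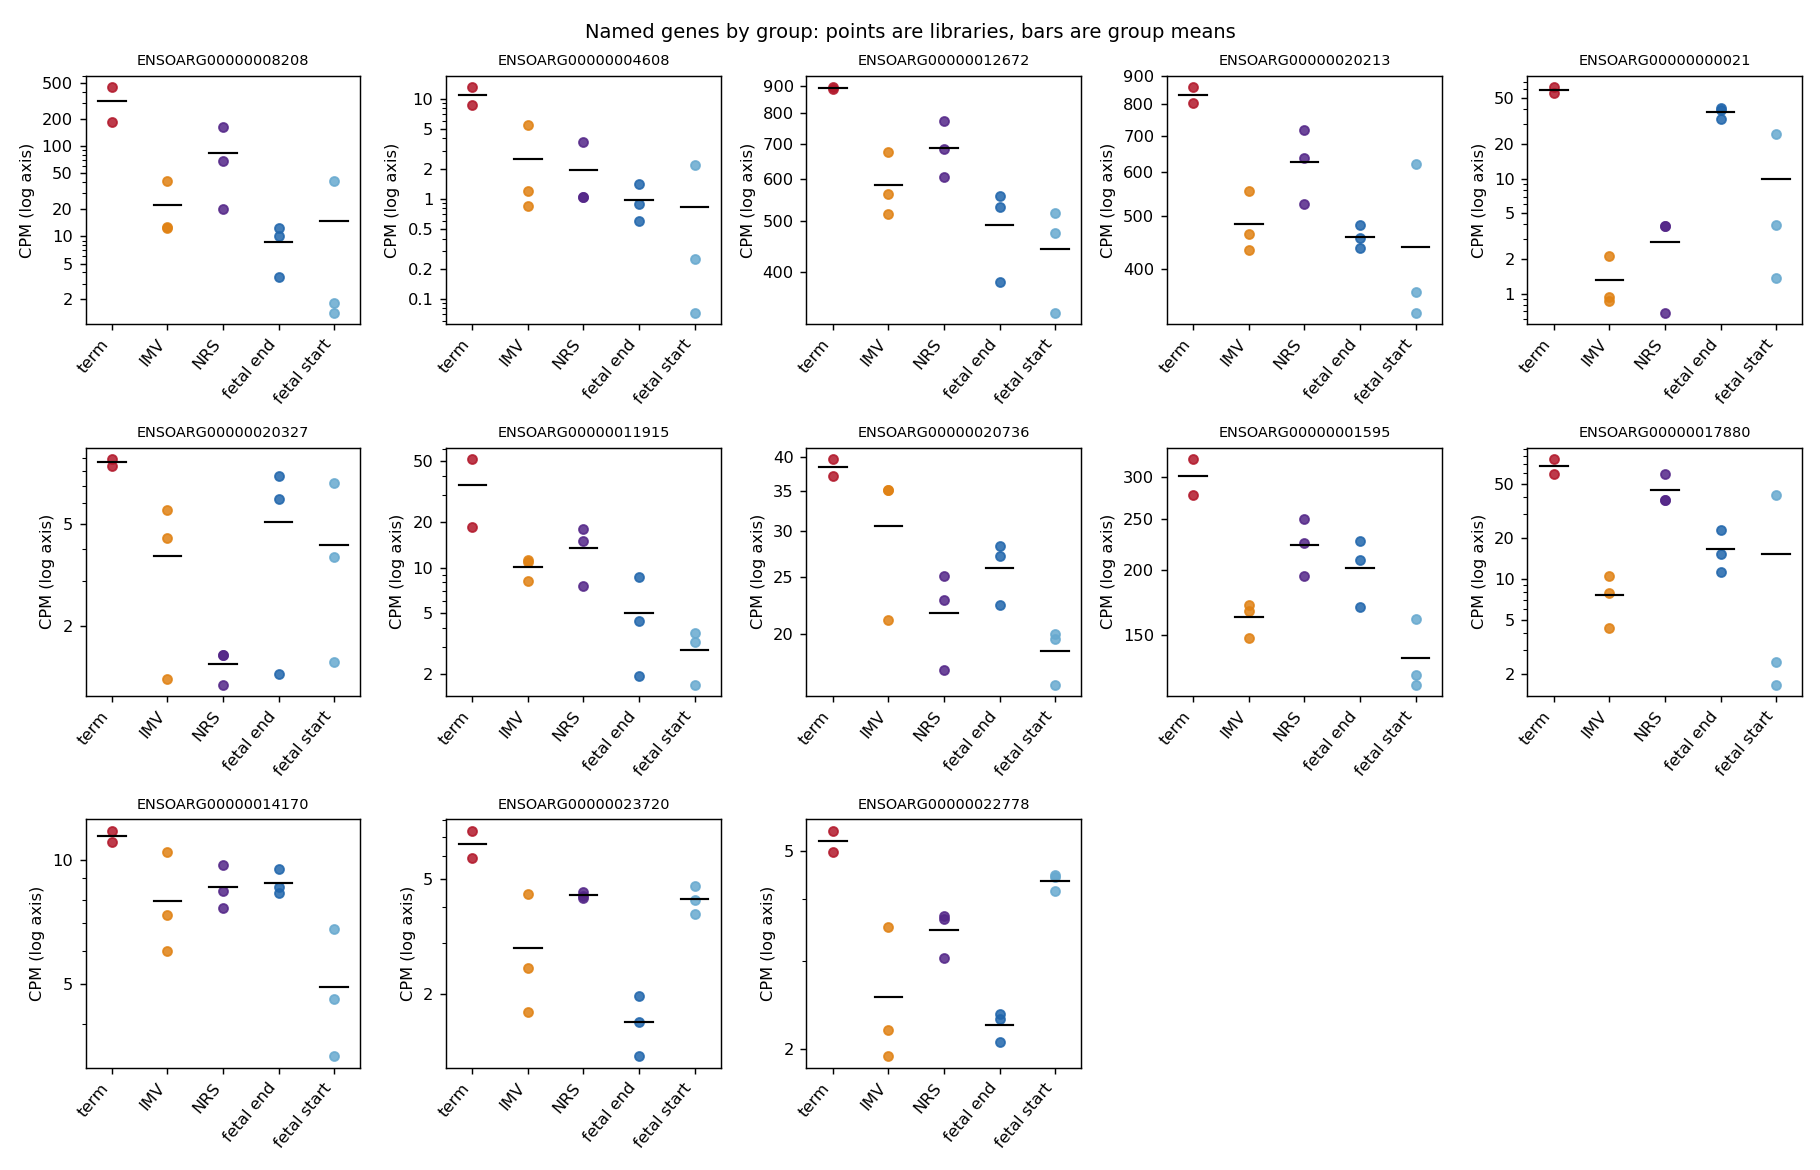
CPM (log axis, scaled separately in each panel) of the 13 genes named by rule, by group, with the term group at the left. Points are libraries (2 for term, 3 for each other group) and bars are group means. Both term points lie above all others in every panel, while the order of the remaining groups differs from gene to gene.

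The rule itself sets both term libraries above all others, so these values cannot check the label of high only in term lungs. They describe where the other groups stood below term. In the median gene the IMV mean was 59.1% of the term mean and the NRS mean 68.0%. The fetal end mean was 53.2% and the fetal start mean 48.8%. The supported mean was above the fetal mean in 109 of the 121 genes (90.1%), where 51.8% of the 13364 genes in the CPM range showed this. In 77 genes the IMV and NRS means were both above both fetal means (63.6%, where 28.9% of the genes in the CPM range showed this). The supported mean was at least 1.5 times the fetal mean in 31 genes and at least 2 times in 7. It lay within 1.2-fold of the fetal mean in 36 genes, with a median term ratio of 1.62 and a highest of 3.31. The rule removed genes in which all supported libraries exceeded all fetal ones, so it acts on this contrast and no test is read from it.

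By library, the median gene stood at 102% and 97.7% of its term mean in the term libraries. It stood at 58.9%, 59.4% and 63.2% with IMV and at 65.9%, 70.0% and 64.5% with NRS. Fetal end libraries gave 54.8%, 53.1% and 49.8%, and fetal start libraries gave 47.3%, 40.1% and 57.0%. All 3 NRS libraries were thus above all 3 IMV libraries in this median, and fetal start replicate 3 was above all fetal end libraries. For the 13364 genes in the CPM range the same median lay between 95.9% and 102% in every library that was not at term.

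**Figure D3:**
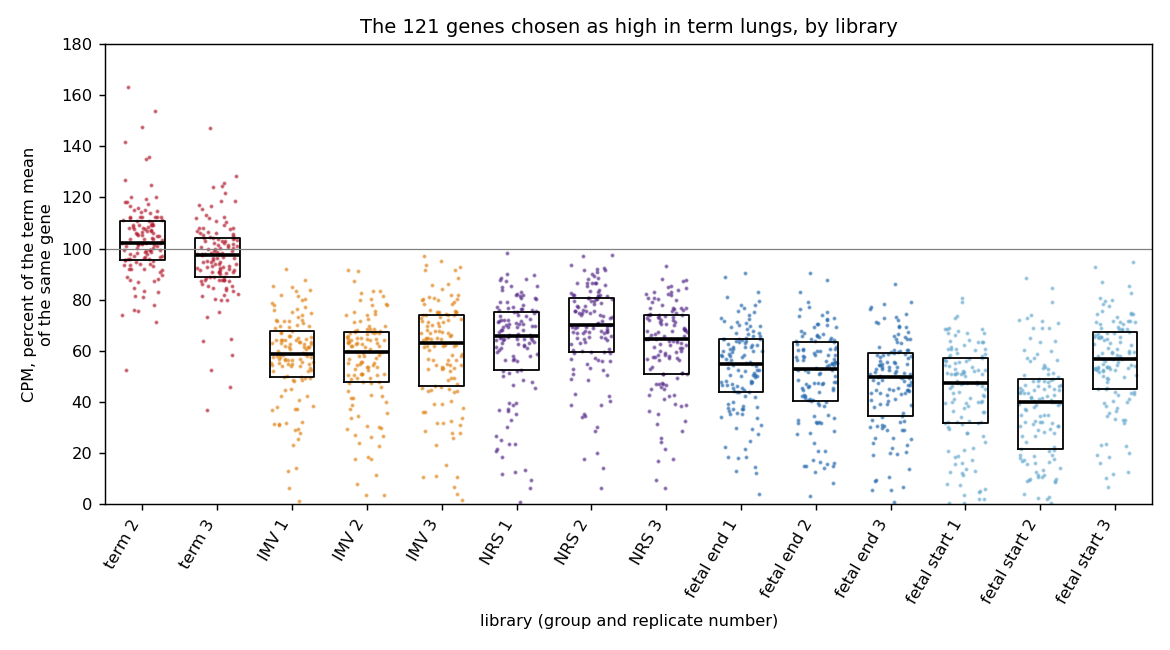
CPM of each of the 121 genes as a percentage of its own term mean, by library, with group and replicate number on the x axis. Points are genes, boxes span the quartiles and black lines are medians. The medians lie near 100% at term, between 58.9% and 70.0% in supported libraries and between 40.1% and 57.0% in fetal libraries.

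A supported library was most often the closest to term. The highest of the 12 other libraries was from the IMV group in 30 genes (24.8%), from NRS in 77 (63.6%), from fetal end in 9 (7.44%) and from fetal start in 5 (4.13%). For the genes in the CPM range, IMV held the highest of the 12 in 24.6%, NRS in 27.2%, fetal end in 21.3% and fetal start in 26.9%. NRS replicate 2, which has the fewest counts of all libraries, was the highest in 37 of the 121 genes, more than any other library. Among the genes in the CPM range it was the highest in 11.4%, below IMV replicate 3 (12.3%) and fetal start replicate 2 (12.9%). The part of depth in this was not tested. The lowest of the 12 was from fetal start in 87 genes, 58 of them with fetal start replicate 2, and from fetal end in 20. Fetal start replicate 3 was the highest of its group in 82 of the 121 genes (67.8%), where this held for 39.1% of the genes in the CPM range. The rule used the values of all these libraries, and its last clause is met more easily by a gene with a high fetal library. These shares are therefore descriptions.

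**Figure D4:**
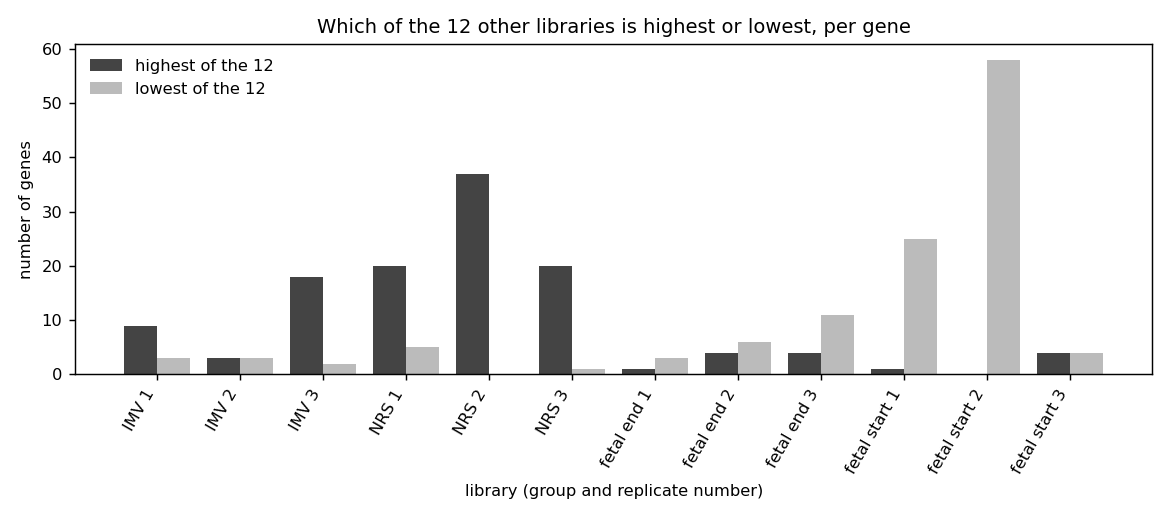
Number of the 121 genes for which each of the 12 libraries outside the term group was the highest (dark bars) or the lowest (light bars). NRS replicate 2 is the highest in 37 genes and fetal start replicate 2 the lowest in 58.

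IMV against NRS sets the kinds of support against each other, a contrast in which the rule treats both groups alike. The rule did use their values, since every library had to lie below both term libraries. This can limit the spread within the groups, and the fit shares its spread estimate with the term libraries. The shares set beside those of all genes are therefore descriptions. The IMV mean was below the NRS mean in CPM in 87 of the 121 genes (71.9%, where 57.6% of the genes in the CPM range showed this), but no single gene passed the test. In the edgeR fit, which scales by TMM, 79 of the 121 genes were lower and 42 higher with IMV. All 121 genes were tested, and all 121 also passed the filter on low counts when the term libraries were set aside. The edgeR quasi-likelihood test called 0 of them (Benjamini-Hochberg adjusted p under 0.05 over 17069 genes), where 0% of all genes tested were called. At an unadjusted p under 0.05 it counted 5 of the 121 (4.13%), 1 higher and 4 lower with IMV. Of all genes tested it counted 10.9%, with 6% higher and 4.86% lower. DESeq2 called 0 of the 121, and 0.791% of all genes tested. The median log2 fold change was -0.12 (quartiles -0.31 and 0.08), where the median of all genes tested was 0.0038 (quartiles -0.18 and 0.19). It lay between -0.15 and -0.095 when each of the 6 libraries was left out in turn. The smallest adjusted p among the 121 genes was 0.366. In 15 genes all NRS libraries were above all IMV libraries (12.4%, against 13.4% of genes tested), and in 0 genes all IMV libraries were above all NRS libraries (6.51% of genes tested).

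The genes with the smallest p values for IMV against NRS differed in size and spread. ENSOARG00000017880 had the largest difference, with 4.36, 7.82 and 10.5 CPM with IMV against 38.3, 38.1 and 59.1 CPM with NRS. The groups did not overlap, and NRS replicate 3 was just under the lower term library, where term libraries had 76.2 and 59.2 CPM. Fetal libraries spread across both levels, with 15.2, 11.2 and 23.0 CPM at fetal end and 2.46, 1.67 and 41.3 CPM at fetal start. The difference of IMV over NRS was -2.54 ± 0.91 in log2 (SE), with an adjusted p of 0.387 in edgeR, so the difference did not pass. ENSOARG00000001595 had 167, 171 and 148 CPM with IMV against 194, 225 and 250 CPM with NRS, again without overlap. Its term libraries had 277 and 325 CPM, and edgeR gave -0.42 ± 0.14 in log2 (SE) at an adjusted p of 0.366.

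In the other direction ENSOARG00000020736 had 21.1, 35.2 and 35.2 CPM with IMV against 25.1, 22.8 and 17.4 CPM with NRS, and 39.7 and 37.2 CPM at term. It had 22.4, 27.2 and 28.2 CPM at fetal end and 20.03, 19.6 and 16.4 CPM at fetal start. IMV replicate 1 lay within the NRS range, and edgeR gave 0.54 ± 0.19 in log2 (SE) at an adjusted p of 0.385. ENSOARG00000020327 had 1.25, 4.40 and 5.63 CPM with IMV against 1.18, 1.55 and 1.54 CPM with NRS. IMV replicate 1 again lay within the NRS range, and edgeR gave 1.43 ± 0.69 in log2 (SE) at an adjusted p of 0.48. ENSOARG00000020327 was named by rule for its direction and was not among the 5 genes with an unadjusted p under 0.05 in edgeR. The 2 of those 5 not yet described were ENSOARG00000001558 and ENSOARG00000007964. Their log2 fold changes were -0.48 and -0.33 (edgeR adjusted p = 0.445 and 0.444).

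Fetal end against fetal start sets older against younger unsupported lungs, and the rule treats both fetal groups alike. The rule used the values of these groups too, so the shares set beside those of all genes are again descriptions. The fetal end mean was above the fetal start mean in 88 of the 121 genes (72.7%, where 53.7% of the genes in the CPM range showed this). No gene passed: edgeR called 0 of the 121, where 0.00586% of all genes tested were called. At an unadjusted p under 0.05 it counted 15 (12.4%, 7.74% of all genes tested), 8 of them higher (4.6% of all genes tested) and 7 lower at fetal end (3.13%). DESeq2 called 4, all lower at fetal end, and 0.691% of all genes tested. The median log2 fold change was 0.13 (quartiles -0.04 and 0.35), where the median of all genes tested was 0.0041 (quartiles -0.14 and 0.20). This median moved with single libraries. It was 0.33 without fetal start replicate 3, the oldest animal of the group, with 1 of the 121 genes called (ENSOARG00000006630) and 5 of all genes. It was 0.024 without fetal start replicate 2 and 0.066 without fetal end replicate 1. In 13 genes all fetal end libraries were above all fetal start libraries (10.7%, 6.96% of genes tested), and in 7 the reverse held (5.79%, 4.43% of genes tested).

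ENSOARG00000001595 was the higher gene with the smallest p, at 227, 209 and 170 CPM at fetal end against 126, 121 and 161 CPM at fetal start. The groups did not overlap, and edgeR gave 0.54 ± 0.14 in log2 (SE) at an adjusted p of 0.401. ENSOARG00000014170 had 9.46, 8.56 and 8.30 CPM at fetal end against 4.59, 3.33 and 6.77 CPM at fetal start, with 11.04 and 11.7 CPM at term. Its supported libraries had 5.999, 7.34 and 10.4 CPM with IMV and 9.69, 7.65 and 8.37 CPM with NRS. Here too the groups did not overlap, and edgeR gave 0.82 ± 0.24 in log2 (SE) at an adjusted p of 0.455.

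The fetal end mean was below the fetal start mean in 33 of the 121 genes. ENSOARG00000023720 had 1.221, 1.601 and 1.97 CPM at fetal end against 4.23, 3.80 and 4.74 CPM at fetal start, with 7.34 and 5.89 CPM at term. Its NRS libraries, at 4.52, 4.30 and 4.36 CPM, lay within the fetal start range, and IMV libraries had 2.46, 1.74 and 4.45 CPM. The difference of fetal end over fetal start was -1.43 ± 0.31 in log2 (SE), with an adjusted p of 0.352 in edgeR, and DESeq2 called it at an adjusted p of 0.00706. ENSOARG00000022778 had 2.06, 2.35 and 2.30 CPM at fetal end against 4.16, 4.43 and 4.48 CPM at fetal start, with 4.99 and 5.50 CPM at term. Its supported libraries, at 1.93, 2.18 and 3.52 CPM with IMV and 3.66, 3.70 and 3.05 CPM with NRS, were all below fetal start. The fetal groups did not overlap, edgeR gave -0.99 ± 0.23 in log2 (SE) at an adjusted p of 0.352, and DESeq2 called this gene as well, at 0.0112. The sources used here do not state how strand was counted, so the counts of genes that overlap another gene are uncertain.

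**Figure D5:**
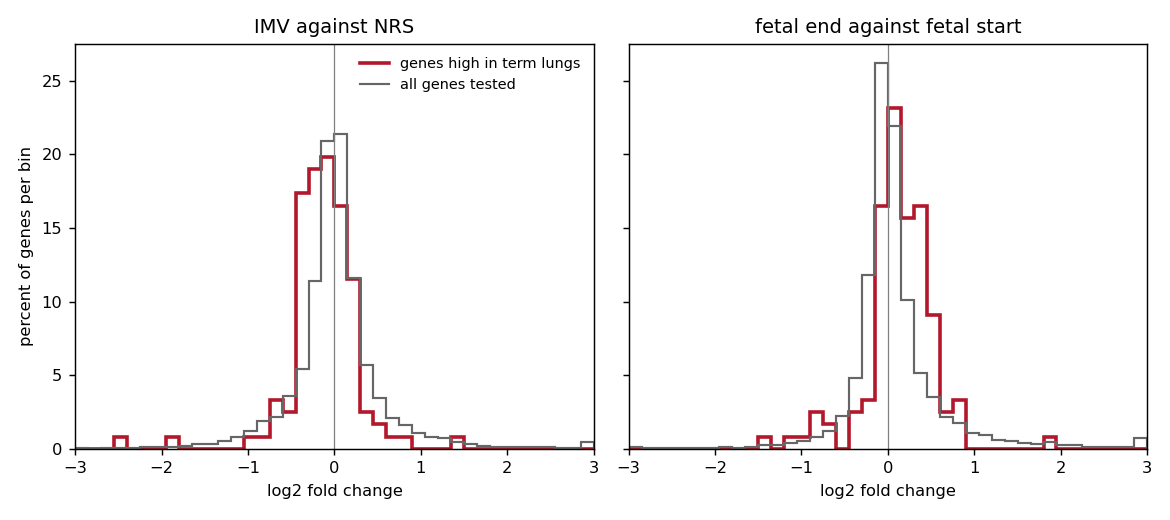
Share of genes (y axis, percent per bin of 0.15) by log2 fold change (x axis) for IMV against NRS and for fetal end against fetal start. Red lines are the 121 genes and grey lines all 17069 genes tested, with values beyond 3 placed in the outermost bins. The 121 genes centre at -0.12 in the first panel and at 0.13 in the second.

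Supported against fetal lungs is a contrast that the rule touches, and its calls are given only as a description. For IMV against all 6 fetal libraries edgeR called 9 of the 121 genes, where 7.45% of all genes tested were called. Of the 9, 8 were higher (4.52% of all genes) and 1 was lower (2.94%). For NRS against the same libraries it called 11, where 2.89% of all genes tested were called, all 11 higher (2.1% of all genes) and 0 lower (0.797%). At an unadjusted p under 0.05 there were 45 genes for IMV (27.1% of all genes) and 56 for NRS (19.9%). All IMV libraries were above all fetal ones in 10 genes (7.79% of all genes), and all NRS libraries in 27 (7.22%). The 2 comparisons share their fetal libraries. The median log2 fold changes of the 121 genes were 0.33 for IMV and 0.40 for NRS, where the medians of all genes tested were 0.0028 and -0.011. Single libraries moved both counts, and the number called among all genes moved as well. With every library in, 1272 of all genes were called for IMV and 494 for NRS. For IMV, 2 of the 121 genes and 157 of all genes were called with IMV replicate 1 left out. Leaving out IMV replicate 2 gave 1 of the 121 and 303 of all genes, leaving out IMV replicate 3 gave 1 and 423, and leaving out fetal end replicate 3 gave 1 and 406. Fetal end replicate 1 left out gave 5 and 594, and fetal start replicate 2 left out gave 4 and 595. Only with fetal start replicate 3 left out was the count of the 121 genes over 1.5 times that of the full set, at 20, with 1287 of all genes. For NRS, leaving out NRS replicate 1, 2 or 3 in turn gave 2, 0 and 2 of the 121 genes, with 186, 273 and 196 of all genes. Fetal end replicate 2 left out gave 6 and 372, fetal end replicate 3 left out gave 5 and 290, and fetal start replicate 2 left out gave 6 and 324. With fetal start replicate 3 left out, 37 of the 121 genes and 1094 of all genes were called.

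Within this set ENSOARG00000011915 had the highest ratio of supported to fetal means after ENSOARG00000008208, at 2.98. It had 52.0 and 18.5 CPM at term, 11.2, 10.9 and 8.18 CPM with IMV, and 7.61, 14.96 and 18.0 CPM with NRS, against 8.74, 4.43 and 1.93 CPM at fetal end and 1.70, 3.26 and 3.69 CPM at fetal start. The highest fetal library, fetal end replicate 1, lay among the lower supported ones, and NRS replicate 3 nearly reached the lower term library. The term ratio of 4.47 was 2.35 without term replicate 2.

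The supported mean was below the fetal mean in 12 genes, and the ratio was under 0.8 in 2 of them. ENSOARG00000000021 had the lowest ratio, 0.0862. It had 55.4 and 62.6 CPM at term, 0.857, 2.12 and 0.933 CPM with IMV, and 0.682, 3.91 and 3.86 CPM with NRS. Fetal end libraries had 39.3, 33.0 and 41.3 CPM, and fetal start libraries 1.37, 24.6 and 3.95 CPM. All 6 supported lungs were low, all term and fetal end lungs were high, and fetal start lungs fell on both sides. Fetal end over fetal start was 1.88 ± 0.81 in log2 (SE), with an adjusted p of 0.621 in edgeR. ENSOARG00000020327 had the next lowest ratio, 0.563, with 8.42 and 8.94 CPM at term and 7.71, 1.30 and 6.25 CPM at fetal end. Fetal start libraries of this gene had 3.72, 1.45 and 7.19 CPM, so high and low lungs occurred in both fetal groups and in the IMV group, while all NRS lungs were low.

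Correlation between the 121 genes was described across the lungs that were not at term. The rule used the values of these lungs, so a higher correlation than in other genes is not a finding about the 121. Of the 121 genes, 109 had the supported mean above the fetal mean, while genes in the CPM range went both ways (51.8% above). Over those 12 libraries the mean correlation between pairs of the genes was 0.34 in log2(CPM + 0.5), where it was 0.018 for the genes in the CPM range. With the 4 group means removed it was 0.19, against 0.022. These are descriptions over 12 libraries that share their depth and composition, and genes are not independent replicates. The median biological coefficient of variation within groups was 21.1% for the 121 genes and 19.3% for all genes tested.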

How the data were processed

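The authors deposited raw counts per gene for 14 libraries in 1 table, and its 14 columns hold whole numbers with no normalization. Total RNA of frozen lung was made into libraries with a stranded kit, per the labels' protocols. The submitters' processing notes list the tools cutadapt 1.16, bcl2fastq, DESeq2 1.22.2, featureCounts 1.6.3, STAR 2.7.0f and Subread, and the build Oar_v3.1, without saying what each did. The sources used here do not state the annotation release, the strand setting or the treatment of multiply mapped reads. Titles gave the group and the replicate number. CPM is the count over the column total, times 1000000.

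The genes, comparisons and lists were chosen with earlier results of these data known. Counts were tested with edgeR 4.0.16 in R 4.3.3 (quasi-likelihood test, TMM scaling, filterByExpr with a count minimum of 10), in 1 fit of all 14 libraries with 5 group means and 9 residual degrees of freedom. The fit tested 17069 genes, with Benjamini-Hochberg adjustment over all of them and a threshold of 0.05. SE is the log2 fold change over the square root of F. The script was tested on simulated data, and replicates of a group differed by more than sampling noise. As alternatives, DESeq2 1.42.0 and RLE scaling were run, the filter was dropped, and the fit was limited to the compared groups. The replicate number, or a term drawn from the ending of the animal identifier, was entered as well. All fetal end animals shared an ending that no other animal had. The identifier term set the ending held by part of the IMV and part of the fetal start animals against all other endings. It therefore did not account for the ending of the fetal end animals, which cannot be told apart from that group. Nothing is concluded from the identifier term for fetal end against fetal start. All NRS animals and both term animals also shared a single ending, which only part of the IMV and part of the fetal start animals had. Its part in how near NRS and IMV libraries stood to term was not tested. Each library was also left out. Leaving out fetal libraries in the supported contrasts, and the term ratios under other settings, were chosen once the data were known.

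Genes were named by rule: 2 each with the highest ratio of term to the other 12, the highest term mean, and the lowest and highest ratio of supported to fetal means, and 2 per direction with the smallest p in each tested contrast. Marker lists of cell types could not be used, since no identifier was paired with a symbol.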

Additional observations from a re-analysis of the deposited data

How the results depend on the processing

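With TMM and RLE scaling the rule found 139 and 132 genes, each with 113 of the 121, and a ratio of at least 2 left 33. Without each of the 14 libraries in turn it found from 109 to 542. For IMV against NRS 0 of the 121 genes were called under every alternative run, including each library left out, and the median kept its sign. For fetal end against fetal start DESeq2 called 4 of them and 118 of all genes (the 4 were ENSOARG00000023720, ENSOARG00000022778, ENSOARG00000022315 and ENSOARG00000022624). Leaving out 1 library gave 0 to 1, and the median stayed positive, from 0.024 to 0.33. In the supported contrasts, DESeq2 called 22 of the 121 genes for IMV (16.3% of all genes) and 29 for NRS (8.92%) against all fetal libraries. Leaving out 1 library gave 1 to 20 for IMV (157 to 1654 of all genes) and 0 to 37 for NRS (186 to 1094). The cause was not tested. Same-numbered libraries of IMV and NRS, and of fetal end and fetal start, did not deviate together (correlations of deviations from -0.152 to -0.00204). So few pairs cannot decide whether the numbers pair the animals. With the replicate block 4 of the 121 genes were called for IMV (673 of all genes) and 6 for NRS (345) against all fetal libraries, and 0 for both other contrasts (0 of all genes). All directions of the named genes held in the tested contrasts. The term group of 2 limits the choice of genes, and age cannot be told apart from the term group.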
